A study of Mus musculus with 2 samples.

Results

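Single cells of the mouse gastrocnemius, taken 14 days after an injection of cardiotoxin (CTX, a snake venom toxin that destroys muscle fibers), were examined for 10 genes of the TGF-β pathway among the 19169 genes measured. The 10 comprise the ligands Tgfb1, Tgfb2, Tgfb3 and Gdf10, the receptors Tgfbr1, Tgfbr2 and Tgfbr3, and the latency genes Ltbp1, Ltbp2 and Ltbp4. All 10 were found in the data. They were taken by name and not by a limit on measured values, although earlier results of these data were known. One library came from WT mice and 1 from mice that lack Gsdme, the gene for the pore-forming protein gasdermin E, in every cell (KO). Both groups were male mice that had received CTX, so no uninjured muscle was measured, and age was not given in the sources used here. The methods name C57BL/6J for the purchased WT mice and give no strain for the mice that lack Gsdme. According to the methods 5 mice of each genotype were used, and pooling was not stated.

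The data hold 44758518 UMIs (unique molecular identifiers, 1 for each captured RNA molecule) in 6354 cells labelled WT, and 50930010 in 7078 cells labelled KO. Median depth was 5740 and 5962.5 UMIs per cell, with 686 and 633 cells under 1000 UMIs, and 4 barcodes occurred in both libraries. Gsdme itself was read at 5.03 CPM (UMIs per 1000000 UMIs of the group; 225 UMIs) in the library labelled WT and 4.65 CPM (237 UMIs) in the library labelled KO. The log2 ratio was -0.11 with an interval from -0.38 to 0.16, so the targeted transcript was not detectably lower over all cells. In FAP-like cells (fibro-adipogenic progenitors, the resident mesenchymal cells) it was lower in KO, at 5.53 and 3.74 CPM (73 and 70 UMIs, -0.56, -1.06 to -0.07). Since Gsdme RNA was read in both, the libraries are named by their labels throughout. With 1 library per genotype there was no replicate and no test between genotypes, and all intervals are exact 95% intervals of counting error only (Poisson for a level, binomial for a ratio). Several RNA molecules of a cell are not independent of each other, so these intervals are narrower than the true error.

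TGF-β ligands are secreted bound to their own propeptide in a latent form, and latent TGF-β binding proteins, the products of the Ltbp genes, tether that complex to the extracellular matrix until integrins or proteases free the ligand. The free ligand binds the type II receptor (Tgfbr2), which activates the type I receptor (Tgfbr1) and through it the SMAD2 and SMAD3 transcription factors, while betaglycan (Tgfbr3) binds ligand at the cell surface, mainly the Tgfb2 product, and presents it. In muscle, TGF-β is known for driving fibroblasts to make matrix and for holding back the differentiation of myogenic cells. Ltbp2 is the exception among the latency genes, since its protein is held not to bind latent TGF-β and acts in the microfibrils of the matrix. Gdf10, also called BMP3b, is a divergent member of the wider ligand family.

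The bases just before the annotated start of 3 genes are shown because the levels of these genes stood out. Tgfb2 and Ltbp1 had the most alike levels across cell types of any pair of the 10 genes, and Ltbp2 differed between the libraries over all cells by more than any of the other 9. The sequences run 5′ to 3′ on the gene's strand and come from RefSeq (GRCm38.p6), in which 8 of the 10 genes had an entry and Tgfb3 and Tgfbr3 had none. They stand at chr1:186705990-186706239 (minus strand) for Tgfb2, chr17:75005279-75005528 (plus strand) for Ltbp1 and chr12:84876533-84876741 (minus strand) for Ltbp2, outside the annotated genes.
Tgfb2: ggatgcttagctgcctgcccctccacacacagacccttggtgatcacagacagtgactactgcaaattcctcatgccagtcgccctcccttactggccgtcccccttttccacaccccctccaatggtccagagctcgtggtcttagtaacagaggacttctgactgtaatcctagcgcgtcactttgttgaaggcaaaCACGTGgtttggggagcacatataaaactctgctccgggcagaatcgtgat
Ltbp1: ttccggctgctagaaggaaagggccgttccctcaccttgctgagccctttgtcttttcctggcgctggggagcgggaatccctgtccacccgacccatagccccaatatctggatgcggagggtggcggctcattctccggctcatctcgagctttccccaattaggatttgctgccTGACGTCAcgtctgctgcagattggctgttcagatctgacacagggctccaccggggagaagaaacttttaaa
Ltbp2: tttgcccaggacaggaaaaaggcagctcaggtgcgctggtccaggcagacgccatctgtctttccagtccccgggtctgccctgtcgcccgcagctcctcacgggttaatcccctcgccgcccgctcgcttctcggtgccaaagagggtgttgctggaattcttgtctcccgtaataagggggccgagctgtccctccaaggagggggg
Capitals mark the matches to 4 motifs that were searched, each of which reads the same on both strands and none of which overlapped another here. These were the E box favored by myogenic factors (CAGCTG, in 13% of the 32851 promoter windows of up to 250 bases), the E box of USF and MYC type (CACGTG, 6.02%), the cAMP response element (TGACGTCA, 1.55%) and the AP-1 site (TGANTCA, 6.75%). Tgfb2 held 1 CACGTG and Ltbp1 held 1 TGACGTCA, so the genes with the most alike levels shared none of the 4 motifs in this window, and the window of Ltbp2 held none of the 4. A match is a description of letters and not a bound site.

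The genes are spread over the genome (GRCm38, GENCODE annotation), and all 10 are protein coding. Of the ligands, Tgfb1 lies at chr7:25687002-25705077, Tgfb2 at chr1:186622792-186705989, Tgfb3 at chr12:86056745-86079041 and Gdf10 at chr14:33923587-33937983. Of the receptors, Tgfbr1 lies at chr4:47353222-47414931, Tgfbr2 at chr9:116084293-116175360 and Tgfbr3 at chr5:107106570-107289629. Ltbp1 lies at chr17:75005568-75392512, Ltbp2 at chr12:84783212-84876532 and Ltbp4 at chr7:27305136-27337692.

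Cells were grouped without the 10 genes. A cluster was said to resemble a type where at least 3 of the type's markers were detected and its 10 leading genes held a marker of that lineage. Clusters in which markers of another type were nearly as strong were not named. In the monocyte-like cluster Lyz1 was the only monocyte marker among the 10 leading genes. In each library 2 of the 5 monocyte markers had 0 UMIs there. Of the named types, 11 had at least 50 cells in each library and are used here, among them FAP-like cells (1719 WT and 2195 KO), tenocyte-like cells (tendon; 400 and 342), MuSC-like cells (muscle stem cells; 240 and 242) and mural-like cells (pericytes and smooth muscle; 183 and 203). Clusters with no clear identity, or with markers of several types, held 17.5% of the cells labelled WT and 16.6% of those labelled KO and are used only where named. Levels of different genes are not ranked against each other, since the capture of each transcript differs.

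The ligands differed in the cells that carried them. Tgfb1, the ligand best known from blood cells and platelets, was a transcript of leukocytes and endothelium. Its level was 301 CPM in WT and 419.5 CPM in KO monocyte-like cells, 292 and 239 CPM in dendritic-like cells, 249.8 and 277 CPM in macrophage-like cells, 217 and 231 CPM in lymphatic endothelial-like cells, 197 and 170.4 CPM in T-like cells and 191 and 169 CPM in endothelial-like cells. Neighboring types in this order overlapped in their intervals, except that monocyte-like cells stood above the next type in the KO library. A gap followed, and the other 5 types lay between 12.6 and 51.9 CPM in both libraries, lowest in MuSC-like cells. Endothelial-like and macrophage-like cells together gave most of the Tgfb1 UMIs that fell in any 1 type, 26.4% and 21.7% of all in the WT and 19.9% and 26.2% in the KO library. FAP-like cells, the most numerous, gave 7.58% and 9.02%.

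Tgfb2 had the reverse distribution and was read in mesenchymal cells. In the WT library its level was 194 CPM in FAP-like, 178 CPM in mural-like, 161 CPM in tenocyte-like, 157 CPM in lymphatic endothelial-like and 134 CPM in MuSC-like cells, neighbors whose intervals overlapped. In the KO library MuSC-like cells led with 285 CPM (257 to 314), above tenocyte-like (182 CPM) and FAP-like cells (178 CPM). Endothelial-like cells had 13.7 and 18.3 CPM and macrophage-like cells 2.20 and 5.77 CPM, so these cells, high in Tgfb1, were low in Tgfb2, whereas lymphatic endothelial-like cells carried both. Among endothelial-like cells, the arterial-like subset carried 59.2 and 61.8 CPM of Tgfb2 and all others 6.84 and 12.2 CPM.

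Tgfb3, the third isoform, was highest in mural-like cells, at 294 CPM (246 to 349) in the WT and 141 CPM (110 to 177) in the KO library, and next in tenocyte-like cells at 112 and 132 CPM. Mural-like cells stood above tenocyte-like cells beyond counting error in the WT library, and the intervals overlapped in the KO library. FAP-like cells followed with 70.1 and 70.4 CPM and lymphatic endothelial-like cells with 60.8 and 67.1 CPM. Leukocyte types were at or below 8.66 CPM in both libraries.

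Gdf10 was close to a FAP transcript. FAP-like cells held 88.2% of its UMIs in the WT and 92.1% in the KO library, at 109 and 99.6 CPM, and 25.4% and 24.4% of these cells had at least 1 UMI. Endothelial-like cells, which serve as a measure of stray RNA, had a Gdf10 UMI in 1.24% and 0.627% of cells. The depths differed (median 7468 and 8272 UMIs in FAP-like, 4690 and 4523 UMIs in endothelial-like cells), and after each cell was thinned to 1000 UMIs the shares were 9.81% and 7.98% against 0.357% and 0.271%. Lymphatic endothelial-like cells came next at 33.4 and 31.2 CPM, and mural-like cells of the KO library had 0 UMIs, where 3 UMIs, taken as the limit for a count of 0, would be 5.78 CPM.

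**Figure D1:**
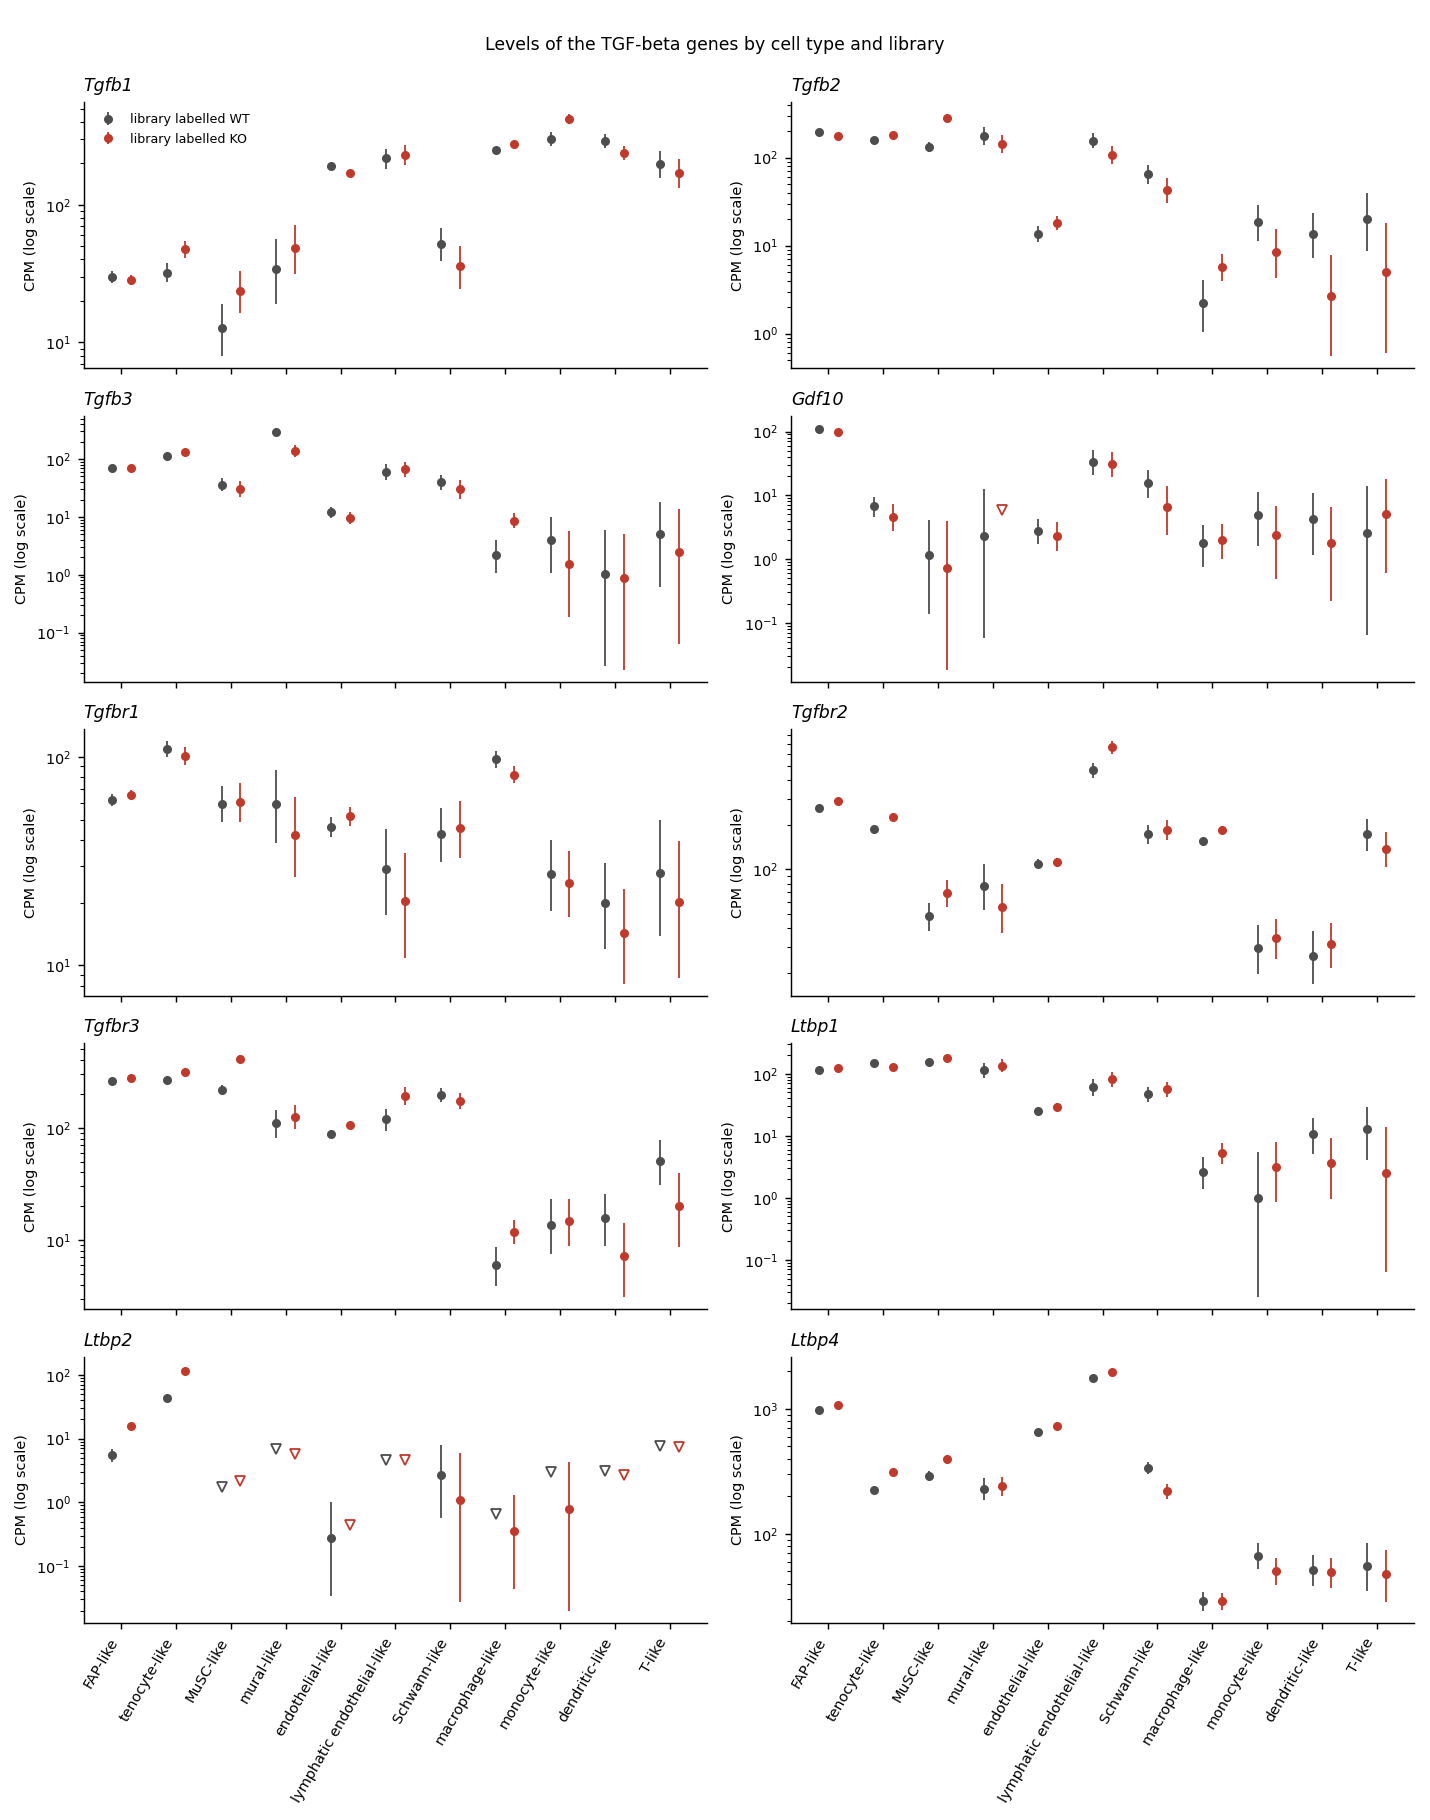
Levels of the 10 genes in 11 cell types, in CPM on a log axis, for the library labelled WT (grey) and the library labelled KO (red). Dots are levels of summed UMIs, bars are exact 95% Poisson intervals of counting error, and open triangles stand for 0 UMIs, drawn at the level of 3 UMIs. Tgfb1 is high on the leukocyte and endothelial side and Tgfb2, Tgfbr3 and Ltbp1 on the mesenchymal side.

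Of the receptors, Tgfbr1, which carries the kinase activity that reaches the SMADs, varied least between cell types. It ranged from 19.9 CPM in dendritic-like to 109 CPM in tenocyte-like cells of the WT library and from 14.3 to 101 CPM in the same types of the KO library. Macrophage-like cells were next (97.6 and 82.3 CPM), followed by FAP-like (62.3 and 65.6 CPM) and MuSC-like cells (59.7 and 60.8 CPM), which could not be told apart by their intervals. Within macrophage-like cells the lipid-associated-like subset had 157 and 128 CPM against 23.6 and 41.1 CPM in the resident-like subset. The former (175 and 218 cells, median 7774 UMIs) was named from Trem2, Gpnmb and Clec4d. Only Gpnmb of these was among its leading genes, beside Cxcl3, Clec4e, Slc7a11 and Cxcl1. The latter (137 and 129 cells, median 4829 UMIs) was named from Lyve1, Folr2 and Cd163. The other macrophage-like cells (518 and 665) were in neither subset.

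Tgfbr2, the ligand-binding receptor, was highest in lymphatic endothelial-like cells in both libraries, at 467 CPM (416 to 522) and 664 CPM (603 to 731), and second in FAP-like cells at 261 and 287 CPM, each step being beyond counting error. Endothelial-like cells of the blood vessels had 109 and 111 CPM. The lowest levels were in monocyte-like (29.5 and 34.3 CPM) and dendritic-like cells (26.2 and 31.3 CPM), 2 of the types with the highest Tgfb1. Resident-like macrophages (243 and 300.04 CPM) exceeded lipid-associated-like macrophages (97.7 and 156 CPM), the opposite order to Tgfbr1.

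Tgfbr3, the co-receptor betaglycan, was a mesenchymal transcript like Tgfb2. In the WT library tenocyte-like (267 CPM) and FAP-like cells (259 CPM) led with overlapping intervals, ahead of MuSC-like (216 CPM) and Schwann-like cells (196 CPM). In the KO library MuSC-like cells led with 409.7 CPM, above tenocyte-like (312 CPM) and FAP-like cells (278 CPM). Macrophage-like cells were at 5.95 and 11.9 CPM.

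Among the latency genes, Ltbp4 was read in most types, with 1760.2 and 1984 CPM in lymphatic endothelial-like, 981 and 1083 CPM in FAP-like and 649 and 724 CPM in endothelial-like cells, in this order and beyond counting error in both libraries. Macrophage-like cells were lowest at 28.9 and 29.0 CPM. Ltbp1 was highest in MuSC-like cells (152 and 177 CPM), but the intervals overlapped those of the next type in both libraries, and tenocyte-like (148 and 129.8 CPM), FAP-like (115 and 124 CPM) and mural-like cells (114 and 135 CPM) lay close by. It was 24.9 and 29.1 CPM in endothelial-like cells.

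Ltbp2 was read mainly in tenocyte-like and FAP-like cells. Tenocyte-like cells had 43.3 CPM (37.7 to 49.5) in the WT and 114 CPM (104 to 125) in the KO library, FAP-like cells had 5.45 and 15.8 CPM, and no other of the 11 types had more than 3 UMIs in either library. Tenocyte-like and FAP-like cells together held nearly all Ltbp2 UMIs, 71.8% and 24.2% in the WT and 60.3% and 37.9% in the KO library. A Ltbp2 UMI was present in 17% and 27.2% of tenocyte-like cells (median depth 11632 and 11381.5 UMIs) against 0 of 830 and 2 of 1012 macrophage-like cells (5240 and 5287 UMIs), where 0 of 830 cells allows a share of up to 0.361%. This limits cells with a UMI at that lower depth, not cells that express the gene. After thinning to 1000 UMIs the tenocyte-like shares were 2.30% and 9.85%.

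**Figure D2:**
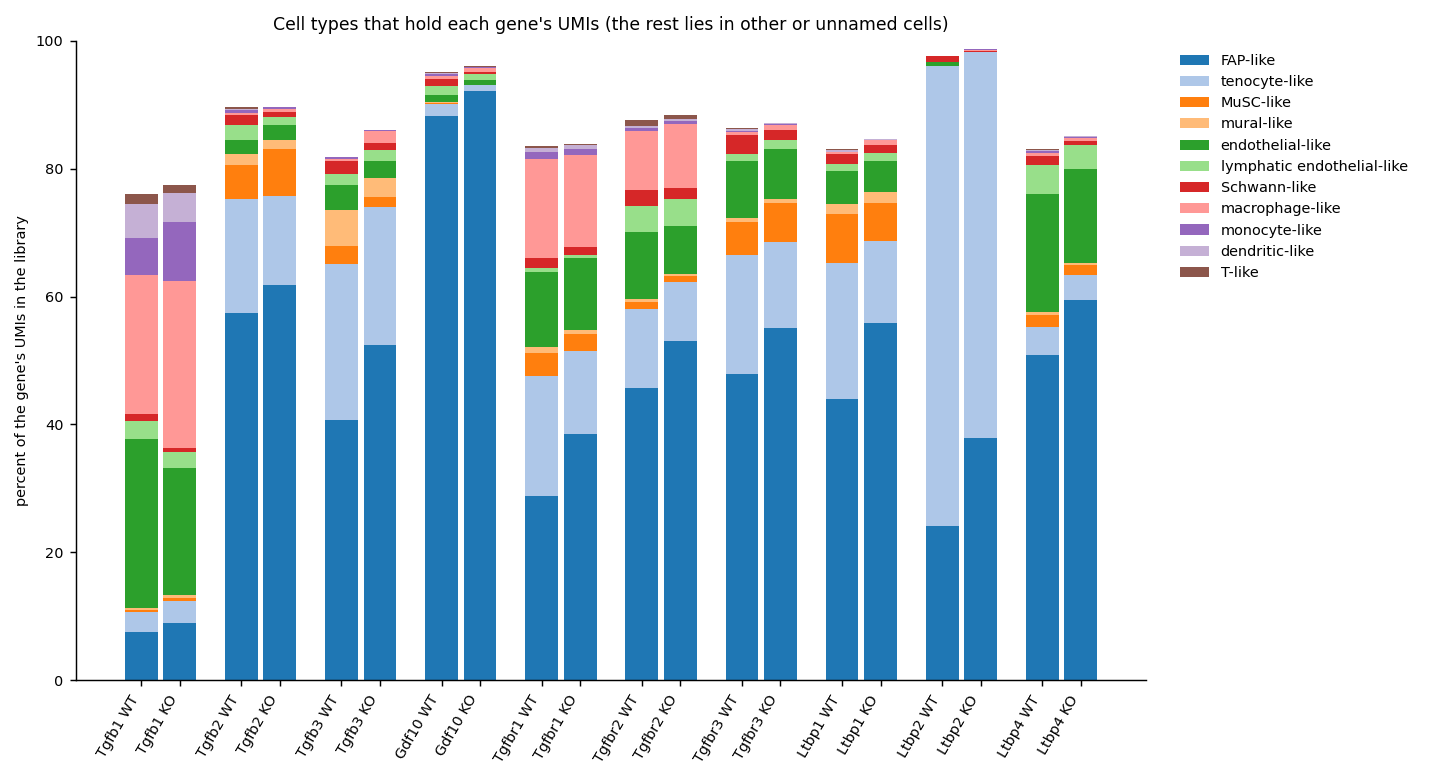
Stacked bars give, for each gene and library, the percent of its UMIs that fell in each cell type, and the rest lies in other or unnamed cells. FAP-like cells hold most Gdf10 UMIs, 88.2% in the WT and 92.1% in the KO library, whereas Tgfb1 is spread over endothelial-like and macrophage-like cells.

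The order of the 11 types was alike in both libraries, with Spearman correlations between the libraries from 0.73 for Ltbp2 to 0.96 for Tgfb1, Tgfb3 and Tgfbr2, given as a description over 11 types that differ in depth. The highest type was the same in both libraries for 8 of the 10 genes, the exceptions being Tgfb2 and Tgfbr3, for which MuSC-like cells led in the KO library alone. Over the 22 combinations of type and library, the levels of Tgfb2 and Ltbp1 on the log2(CPM + 10) scale correlated with r = 0.95, those of Ltbp1 and Tgfbr3 with r = 0.94, and those of Tgfb1 and Ltbp1 with r = -0.86. These points share libraries and depth, so the values describe likeness only.

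Among 10303 genes with at least 500 UMIs, those most like each ligand across the 22 points were Ptpn18 (r = 0.92), Actr2 (0.92) and Ucp2 (0.91) for Tgfb1, Ltbp1 (0.95), Ube2e2 (0.95) and Gem (0.94) for Tgfb2, Arhgap42 (0.93), 2310022B05Rik (0.92) and Slc2a10 (0.92) for Tgfb3, and Col6a5 (0.92), Cd55 (0.91) and Rspo3 (0.87) for Gdf10. For the receptors they were Bhlhe41 (0.86), Eef2k (0.85) and Ctsl (0.84) for Tgfbr1, Grina (0.89), Add1 (0.85) and Nfatc1 (0.81) for Tgfbr2, and Golim4 (0.96), Zbtb20 (0.96) and Nfia (0.95) for Tgfbr3. For the latency genes they were Maged1 (0.96), Tgfb2 (0.95) and Rbms3 (0.95) for Ltbp1, Fbn2 (0.97), Col8a2 (0.97) and Rab15 (0.97) for Ltbp2, and Ppfibp1 (0.94), Sntb2 (0.93) and Sned1 (0.92) for Ltbp4. Fbn2 encodes a fibrillin, a protein of matrix microfibrils.

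FAP-like and tenocyte-like cells were divided into the FAP subsets that the study defined by marker genes. A coarse grouping gave 6 of its 7 subsets and a finer one (resolution 0.8) all 7. Coarse FAPs-2 shared the leading genes Fmod, Chad, Cilp2 and Tnmd with tenocyte-like cells, so the results of these groups are not separate. In coarse FAPs-0 (Hsd11b1, Mme, Enpp2) only Hsd11b1 of its markers was among the 10 leading genes, beside the heat-shock genes Hspa1a, Hspa1b, Hspb1 and Dnajb1. At resolution 0.8 a cluster led by Hspa1a and Hspa1b (120 and 200 cells) stood apart unnamed, and FAPs-0 had 167 and 195 cells. Gdf10 differed widely between the subsets. It reached 583 CPM in WT and 705 CPM in KO cells of FAPs-3 (Sfrp1, Sfrp4, C2) and 215 and 235 CPM in FAPs-6 (Clu, Cpe, Myoc), against 10.7 and 13.4 CPM in FAPs-4 (Pi16, Dpp4, Efemp1). In the finer grouping FAPs-3 held other cells as well and its Gdf10 level was 255 and 221 CPM, next to 227 and 236 CPM in FAPs-6, so that which of them led depended on the grouping.

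FAPs-4, the Pi16+ Dpp4+ cells held to be progenitors of other fibroblasts, had the highest Tgfbr2 of the subsets (475 and 539.7 CPM, the other subsets lying between 132 and 236 CPM) and the highest Ltbp1 (215 and 251 CPM). FAPs-6 had the lowest Ltbp1 (28.1 and 35.9 CPM) but a high Ltbp4 (1394 and 1416 CPM), and FAPs-4 had a lower Ltbp4 (499 and 624 CPM). The subsets thus differed in the levels of these latency genes, both of which were read in each. Tgfbr3 was even across subsets, from 197 to 318 CPM.

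The tendon subsets of the finer grouping, FAPs-2 and FAPs-5, differed from each other. FAPs-2 had the lowest Tgfb1 (21.7 and 18.2 CPM) and the lowest Tgfb2 (122 and 117 CPM) of the subsets at resolution 0.8. Its Tgfb1 intervals overlapped those of other subsets, FAPs-4 among them, in both libraries. FAPs-5 (Thbs4, Tnmd, Chodl), which only the finer grouping resolved (139 and 145 cells), had the highest level of any subset in both libraries for Tgfb1 (51.6 and 78.7 CPM), Tgfb2 (269 and 291 CPM), Tgfb3 (144 and 161 CPM), Tgfbr1 (156 and 123 CPM) and Ltbp2 (111 and 245 CPM). In the WT library its intervals overlapped those of FAPs-0 and FAPs-3 for Tgfb1 and of FAPs-1 and FAPs-6 for Tgfb2. The Gdf10 level of FAPs-5 was 9.15 and 1.12 CPM. Ltbp4 was lowest there in the WT library (195 CPM) and 397 CPM in the KO library.

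**Figure D3:**
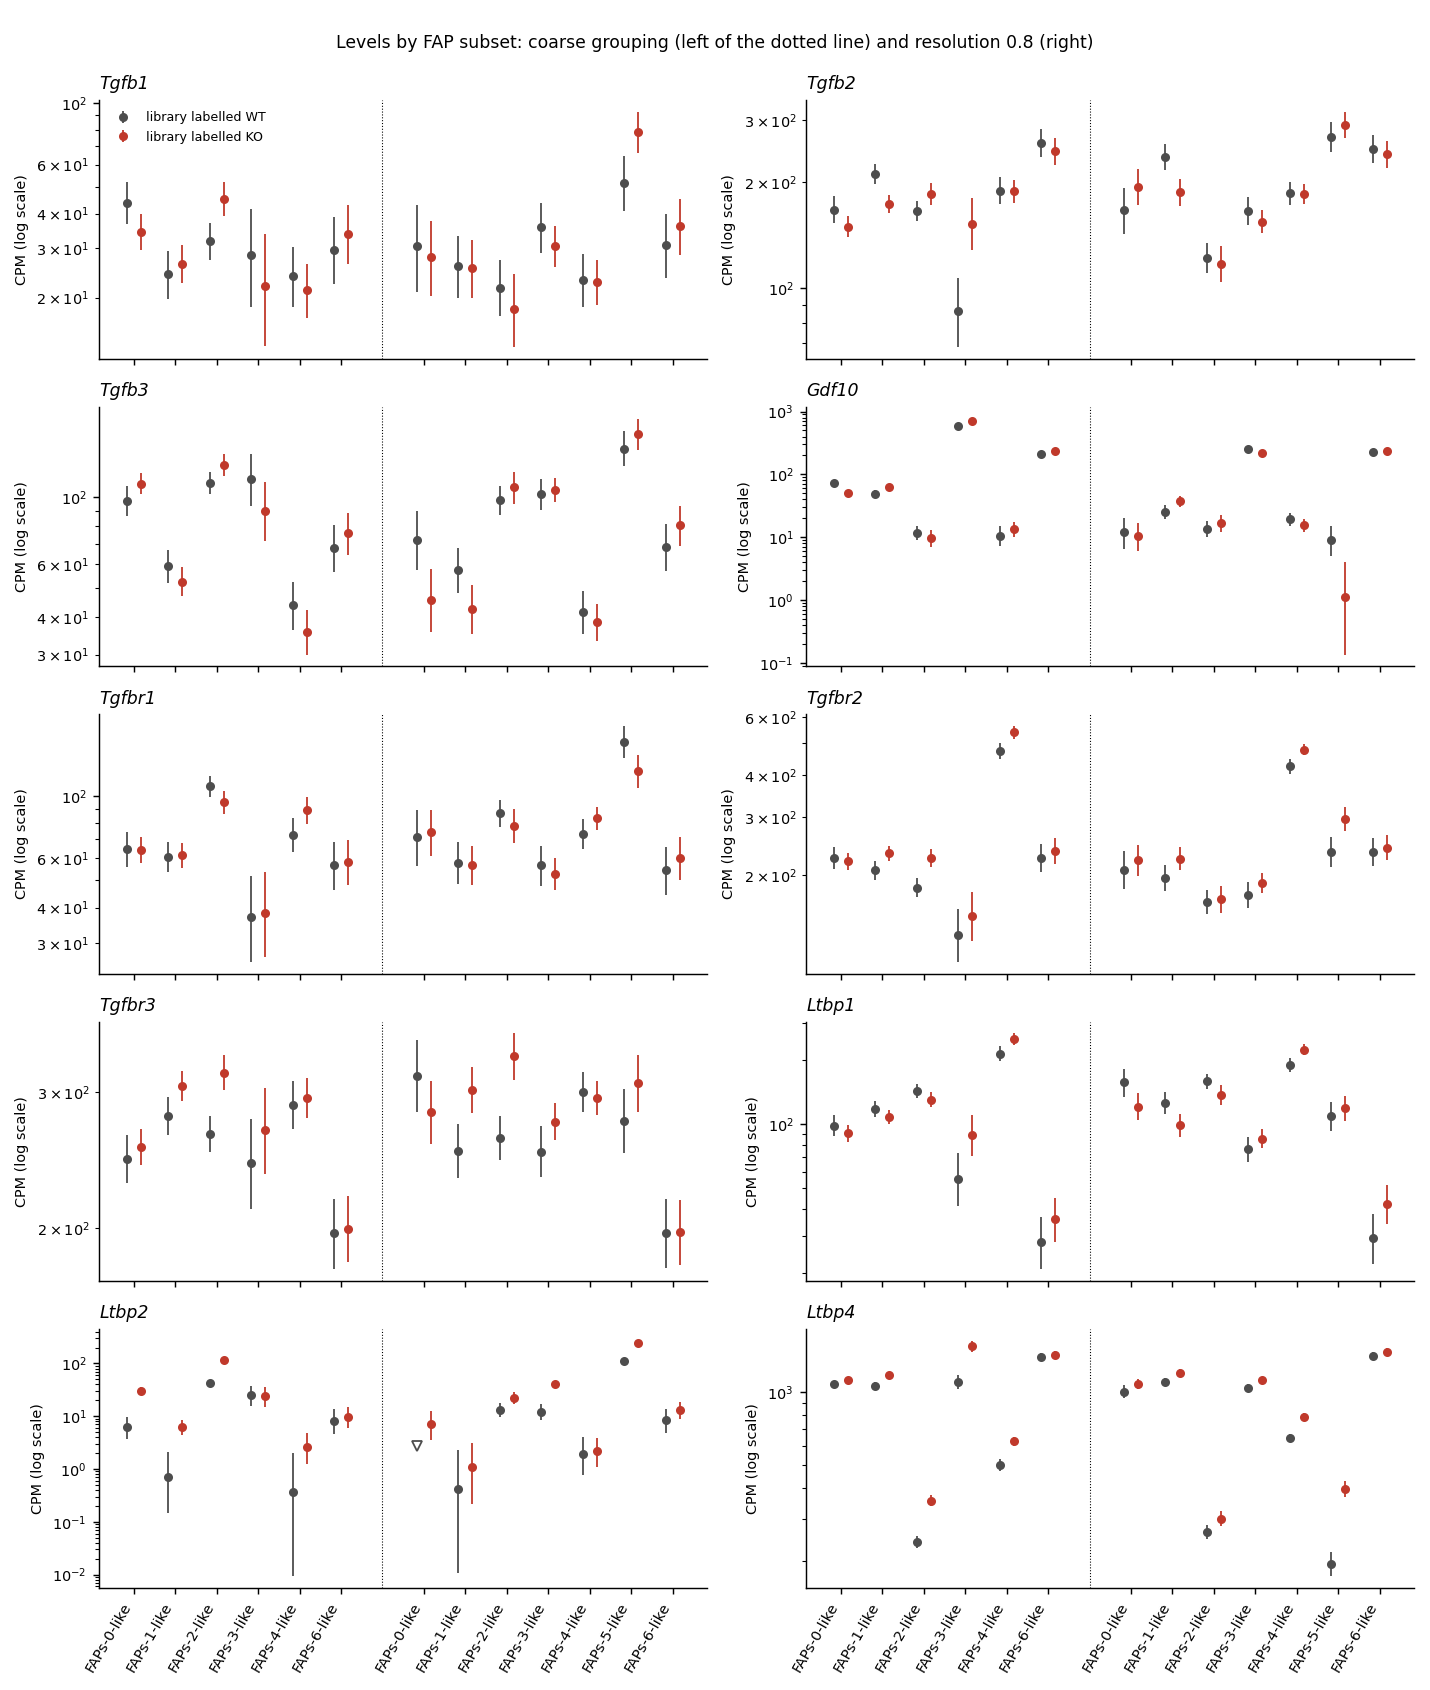
Levels of the 10 genes in the FAP subsets, in CPM on a log axis, with the coarse grouping left of the dotted line and resolution 0.8 right of it, for the library labelled WT (grey) and the library labelled KO (red). Bars are exact 95% Poisson intervals of counting error. Gdf10 peaks in FAPs-3 and FAPs-6, Tgfbr2 in FAPs-4, and Ltbp2 in FAPs-2 (coarse) and FAPs-5 (fine).

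The comparison of the libraries asked how the 10 genes differed after CTX between the libraries labelled KO and WT, 1 cell type at a time. A gene was tested where it had at least 50 UMIs over both libraries in the type, and counted as past the fold where the log2 ratio of KO over WT was at least 0.5 in size and its interval left out 0. Over all cells the ratios of 9 genes lay between -0.04 (Tgfb3) and 0.24 (Tgfbr2), and Ltbp2 stood apart at 6.66 CPM (298 UMIs) in the WT and 15.3 CPM (779 UMIs) in the KO library, a log2 ratio of 1.2 (1.01 to 1.40). By cell type, 72 of the 110 pairs of gene and type could be tested and 15 were past the fold (20.8%), 11 higher and 4 lower in KO, beside 9760 of 70915 pairs over all genes (13.8%). The share of genes past the fold is thus large everywhere, and none of these counts comes from a replicated test.

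In FAP-like cells 1 of the 10 genes was past the fold, where 12.0% of all tested genes were. That gene was Ltbp2, which had 72 UMIs in 34 WT cells and 295 UMIs in 89 KO cells. Its levels of 5.45 and 15.8 CPM gave a log2 ratio of 1.53 (1.16 to 1.92). The 5 cells with most Ltbp2 held 37.5% and 31.9% of these UMIs, and without them the ratio was 1.65. When every cell was thinned to 1000 UMIs the ratio fell to 0.09 (-0.90 to 1.12), and when every cell weighed the same it was 0.66. The markers of tenocytes, the cells richest in Ltbp2, summed to 667 CPM in WT and 1176 CPM in KO FAP-like cells, with all 6 above 0 in both libraries, and their part in the Ltbp2 ratio was not tested.

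The other 9 genes of FAP-like cells differed little. Ratios ran from -0.14 for Gdf10 (-0.24 to -0.04) to 0.14 for Ltbp4 (0.11 to 0.17), so Tgfb1 (396 and 529 UMIs, -0.09), Tgfb3 (926 and 1318 UMIs, 0.01) and Tgfbr1 (823 and 1227 UMIs, 0.07) had intervals that included 0. In the coarse grouping the subsets differed in direction for several genes, among them Gdf10, Tgfb2, Tgfb1 and Tgfbr1. Tgfb1 was lower in KO in FAPs-0 (43.7 and 34.4 CPM) and higher in FAPs-2 (31.9 and 45.3 CPM). Tgfbr1 was lower in KO in FAPs-2 (108 and 94.9 CPM) and higher in FAPs-4 (72.7 and 88.9 CPM). Gdf10 was lower in KO in the coarse FAPs-0, a group led in part by heat-shock genes, with 72.2 and 50.4 CPM and a ratio of -0.52 (-0.78 to -0.25). It was higher in FAPs-1 (48.5 and 63.1 CPM, 0.38, 0.13 to 0.63) and FAPs-3 (0.27, 0.11 to 0.44). At resolution 0.8 the FAPs-0 cells had only 13 and 16 Gdf10 UMIs, too few to test, the FAPs-1 ratio was 0.55 (0.08 to 1.03) and the FAPs-3 ratio turned to -0.21 (-0.35 to -0.06). Tgfb2 was lower in FAPs-1 (211 and 173 CPM, -0.29, -0.42 to -0.16) and higher in FAPs-3 (86.1 and 153 CPM, 0.83, 0.42 to 1.24). At resolution 0.8 the FAPs-1 ratio was -0.34 (-0.51 to -0.16), whereas FAPs-3 had 166 and 155 CPM (-0.10, -0.27 to 0.07), so the higher Tgfb2 of FAPs-3 was lost. Ltbp1 was past the fold and higher in coarse FAPs-3 (0.68, 0.16 to 1.21), but at resolution 0.8 its FAPs-3 ratio was 0.17 (-0.08 to 0.42). There it was past the fold in FAPs-6 (0.52, 0.02 to 1.04), and Tgfb3 was lower in FAPs-0 (-0.66, -1.15 to -0.18).

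Ltbp2 had the 50 UMIs needed for a test in 2 of the coarse subsets, and it was higher in KO in both. FAPs-0, led in part by heat-shock genes, had 19 UMIs in the WT and 161 in the KO library (6.29 and 30.8 CPM, ratio 2.29, 1.60 to 3.06). FAPs-2 (Fmod, Wif1, Comp) had 42.4 and 115 CPM (1.44, 1.21 to 1.67), which is not separate from the result of tenocyte-like cells below. The other 4 had too few, FAPs-1 with 3 and 39, FAPs-3 with 23 and 22, FAPs-4 with 1 and 10 and FAPs-6 with 15 and 20 UMIs. At resolution 0.8 Ltbp2 was past the fold in FAPs-2 (13.4 and 22.6 CPM, 0.75, 0.17 to 1.34), FAPs-3 (12.3 and 40.02 CPM, 1.70, 1.16 to 2.29) and FAPs-5 (1.14, 0.88 to 1.41), and FAPs-0 had only 0 and 11 UMIs. Ltbp4 was higher in KO in the coarse FAPs-2 (240.2 and 356 CPM, 0.57, 0.46 to 0.68). At resolution 0.8 it was past the fold in FAPs-5 (195 and 397 CPM, 1.03, 0.83 to 1.23) and no longer in FAPs-2 (263 and 299.8 CPM, 0.19, 0.05 to 0.33).

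Tenocyte-like cells had 2 genes past the fold, both higher in KO, where 12.3% of all tested genes were. Ltbp2 had 214 UMIs in 68 of 400 WT cells and 470 UMIs in 93 of 342 KO cells, or 43.3 and 114 CPM, a log2 ratio of 1.40 (1.17 to 1.64). Without the 5 richest cells the ratio was 1.64 and after thinning it was 2.21 (1.27 to 3.26). Cells with 8 or more Ltbp2 UMIs made up 1.75% of WT and 4.68% of KO tenocyte-like cells. Tgfb1 was 32.2 and 47.7 CPM (159 and 196 UMIs, ratio 0.57, 0.26 to 0.88), and without the 5 cells richest in it 0.43. Of the tendon markers, Fmod was 11093 and 9859 CPM, Tnmd 2374 and 2283 CPM and Thbs4 5561 and 6318 CPM, and the 6 of the list summed to 21483 and 20768 CPM. Chodl, which marks FAPs-5, was past the fold with 259 and 393 CPM (0.60, 0.49 to 0.71).

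MuSC-like cells had 4 of 8 tested genes past the fold, all higher in KO, where the background was also the highest of any type, at 24.3%. Tgfb2 had 233 UMIs in the WT and 398 in the KO library, or 134 and 285 CPM, a log2 ratio of 1.09 (0.85 to 1.33). Tgfbr3, whose product presents that ligand, had 376 and 573 UMIs, or 216 and 409.7 CPM, a ratio of 0.92 (0.73 to 1.12). Tgfb2 was read in 107 of 240 WT cells and 116 of 242 KO cells, shares that were close (44.6% and 47.9%), whereas cells with 8 or more Tgfb2 UMIs made up 0.833% and 4.96%. For Tgfbr3 the share of cells with a UMI was 67.5% and 81.8%. Median depth was lower in the KO library (6384.5 and 5470.5 UMIs).

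The other members past the fold there were nearer the limit. Tgfbr2 was 48.2 and 69.3 CPM (84 and 97 UMIs, ratio 0.52, 0.09 to 0.96) and Tgfb1 12.6 and 23.6 CPM (22 and 33 UMIs, ratio 0.90, 0.08 to 1.75). Without the 5 cells richest in each gene the ratios were 0.42 (-0.06 to 0.90) and 0.63 (-0.39 to 1.68). Ltbp4 was 289.9 and 393 CPM (ratio 0.44, 0.26 to 0.62) and Ltbp1, Tgfbr1 and Tgfb3 had intervals that included 0.

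Other genes moved with these in MuSC-like cells. Pax7, which marks stem cells, was 161 and 296 CPM, Myod1 was 321 and 560 CPM, and Myog, which marks differentiating cells, was 277 and 147 CPM. All 5 MuSC markers were above 0 in both libraries and their sum was 890 and 1476 CPM. The 10 early response genes of tissue dissociation summed to 8527 and 16204 CPM, and 8 of the 10 were past the fold and higher in KO. Among cells without a Myog UMI the ratios were 1.05 for Tgfb2 and 0.77 for Tgfbr3, and 0.37 (-0.07 to 0.82) for Tgfbr2. A separate cluster in which MuSC markers occurred with endothelial markers (81 and 73 cells) had 95.9 and 106 CPM of Tgfb2 (ratio 0.15, -0.23 to 0.52) and 192 and 213 CPM of Tgfbr3 (0.15, -0.11 to 0.41). The part of the early response genes in these ratios was not tested.

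**Figure D4:**
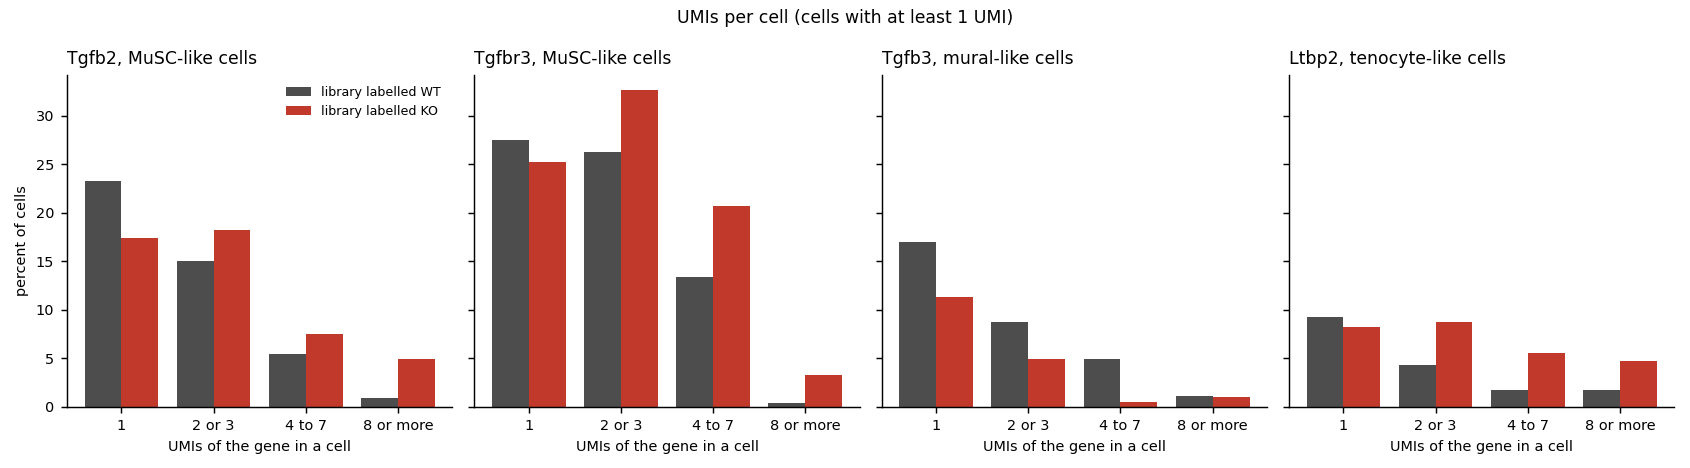
Percent of cells that held 1, 2 or 3, 4 to 7, or 8 or more UMIs of a gene, for Tgfb2 and Tgfbr3 in MuSC-like, Tgfb3 in mural-like and Ltbp2 in tenocyte-like cells, in the library labelled WT (grey) and the library labelled KO (red). Cells with 8 or more Tgfb2 UMIs are 0.833% of WT and 4.96% of KO MuSC-like cells, while cells with 1 UMI of Tgfb3 are 16.9% and 11.3% of mural-like cells.

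Mural-like cells had 1 of 6 tested genes past the fold, where 15.5% of all tested genes were, and it was the largest decrease among the 15 pairs. Tgfb3 had 129 UMIs in 58 of 183 WT cells and 73 UMIs in 36 of 203 KO cells, or 294 and 141 CPM, a log2 ratio of -1.07 (-1.5 to -0.64). Median depth was low, 1827 and 1753 UMIs. In cells with a UMI of the smooth muscle gene Myh11 the levels were 401 and 169.8 CPM (ratio -1.24), and in cells without one the ratio was -0.43 (-1.42 to 0.55). A cluster with pericyte and endothelial markers together (317 and 351 cells) had 66.6 and 40.9 CPM of Tgfb3, a ratio of -0.70 (-0.96 to -0.44), but there Tgfb2 was higher in KO, at 33.6 and 50.9 CPM (0.60, 0.30 to 0.90). In mural-like cells Tgfb2 was 178 and 144 CPM (ratio -0.30, -0.78 to 0.18).

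The KO mural-like cells also differed in their content of other RNA. The 3 erythroid markers summed to 93.5 CPM in WT and 13781 CPM in KO, the 6 FAP markers to 515 and 1652 CPM, and the early response genes to 18909 and 32156 CPM. Among contractile genes, Acta2 was 3629 and 2362 CPM and Myh11 1201 and 984 CPM, while the pericyte marker Rgs5 was 14658 and 17474 CPM. The part of these in the Tgfb3 ratio was not tested.

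Lymphatic endothelial-like cells had 3 of 7 tested genes past the fold, where 13.1% of all tested genes were. Tgfbr2 was 467 and 664 CPM (307 and 426 UMIs, ratio 0.51, 0.29 to 0.73) and Tgfbr3 119 and 193 CPM (78 and 124 UMIs, 0.71, 0.29 to 1.13), both higher in KO. Tgfb2 was lower, at 157 and 108 CPM (103 and 69 UMIs, ratio -0.54, -1.0 to -0.09). There were only 83 and 79 such cells, and 5 of them held 44.7% and 44.9% of the Tgfb2 UMIs. Without those cells the Tgfb2 ratio was -0.42 (-1.06 to 0.19), and with every cell weighed the same it was 0.11 for Tgfb2 and 0.19 for Tgfbr3. After thinning the Tgfbr2 ratio was 0.24 (-0.43 to 0.91). The 6 pericyte markers summed to 53.2 and 215 CPM in these cells (Rgs5 25.8 and 149.7 CPM) and the 6 FAP markers to 172 and 245 CPM, and their part in the ratios was not tested.

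Schwann-like cells had 2 of 8 tested genes past the fold, both lower in KO, where 12.0% of all tested genes were. Ltbp4 was 336 and 219.7 CPM (369 and 203 UMIs, ratio -0.61, -0.87 to -0.36) and Tgfb2 64.7 and 43.3 CPM (71 and 40 UMIs, -0.58, -1.18 to -8.04e-06). The FAP markers, of which Dcn was 3532 and 1366 CPM, summed to 4501 and 1840 CPM in these cells, with all 6 above 0 in both libraries. Among Schwann-like cells with no FAP marker UMI (67 and 52 cells) the Tgfb2 ratio was -0.04 (-1.13 to 1.06) and the Ltbp4 ratio -0.68. After thinning and clustering anew the Ltbp4 ratio was 0.10 (-0.80 to 1.0).

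Macrophage-like cells had 2 of 6 tested genes past the fold, both higher in KO, where 12.6% of all tested genes were. Both were at the low end for their genes. Tgfb3 had 10 UMIs in 10 WT cells and 48 UMIs in 27 KO cells, or 2.20 and 8.66 CPM, a ratio of 1.97 (0.97 to 3.12), with up to 8 UMIs in 1 KO cell. Tgfbr3 had 27 and 66 UMIs, or 5.95 and 11.9 CPM, a ratio of 1.0 (0.33 to 1.70). The tenocyte markers, all 6 above 0 in both libraries, summed to 31.5 and 111 CPM in macrophage-like cells, and Fmod was 11.02 and 45.3 CPM. With every cell weighed the same the ratios were 0.87 for Tgfb3 and 0.32 for Tgfbr3, and without the 5 cells richest in Tgfbr3 its ratio was 0.90 (-0.02 to 1.88). Among cells without a tenocyte marker UMI the ratio was 1.43 (0.39 to 2.62) for Tgfb3 and 0.33 (-0.44 to 1.13) for Tgfbr3.

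The genes that macrophage-like cells carry at a higher level differed less. Tgfb1 was 249.8 and 277 CPM (ratio 0.15, 0.04 to 0.26), Tgfbr1 97.6 and 82.3 CPM (-0.25, -0.44 to -0.05) and Tgfbr2 155 and 183 CPM (0.24, 0.10 to 0.39). In the lipid-associated-like subset Tgfbr2 was 97.7 and 156 CPM (0.68, 0.38 to 0.98). In monocyte-like cells, where 16.4% of all tested genes were past the fold, none of 4 tested members was, and Tgfb1 came nearest at 301 and 419.5 CPM (0.48, 0.27 to 0.68).

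In endothelial-like cells none of 8 tested members was past the fold, where 9.31% of all tested genes were, and the ratios ran from -0.32 for Tgfb3 to 0.42 for Tgfb2 (0.03 to 0.81). None of 3 was past it in dendritic-like cells, where 15.2% of all tested genes were, and none of 2 in T-like cells, where 18.1% were. Within endothelial-like cells, the arterial-like subset had Ltbp1 (26 and 46 UMIs, 0.99, 0.27 to 1.74) and Tgfbr3 (44 and 61 UMIs, 0.64, 0.06 to 1.23) past the fold. All other endothelial-like cells had Tgfb2 past it (43 and 74 UMIs, 0.84, 0.28 to 1.41).

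**Figure D5:**
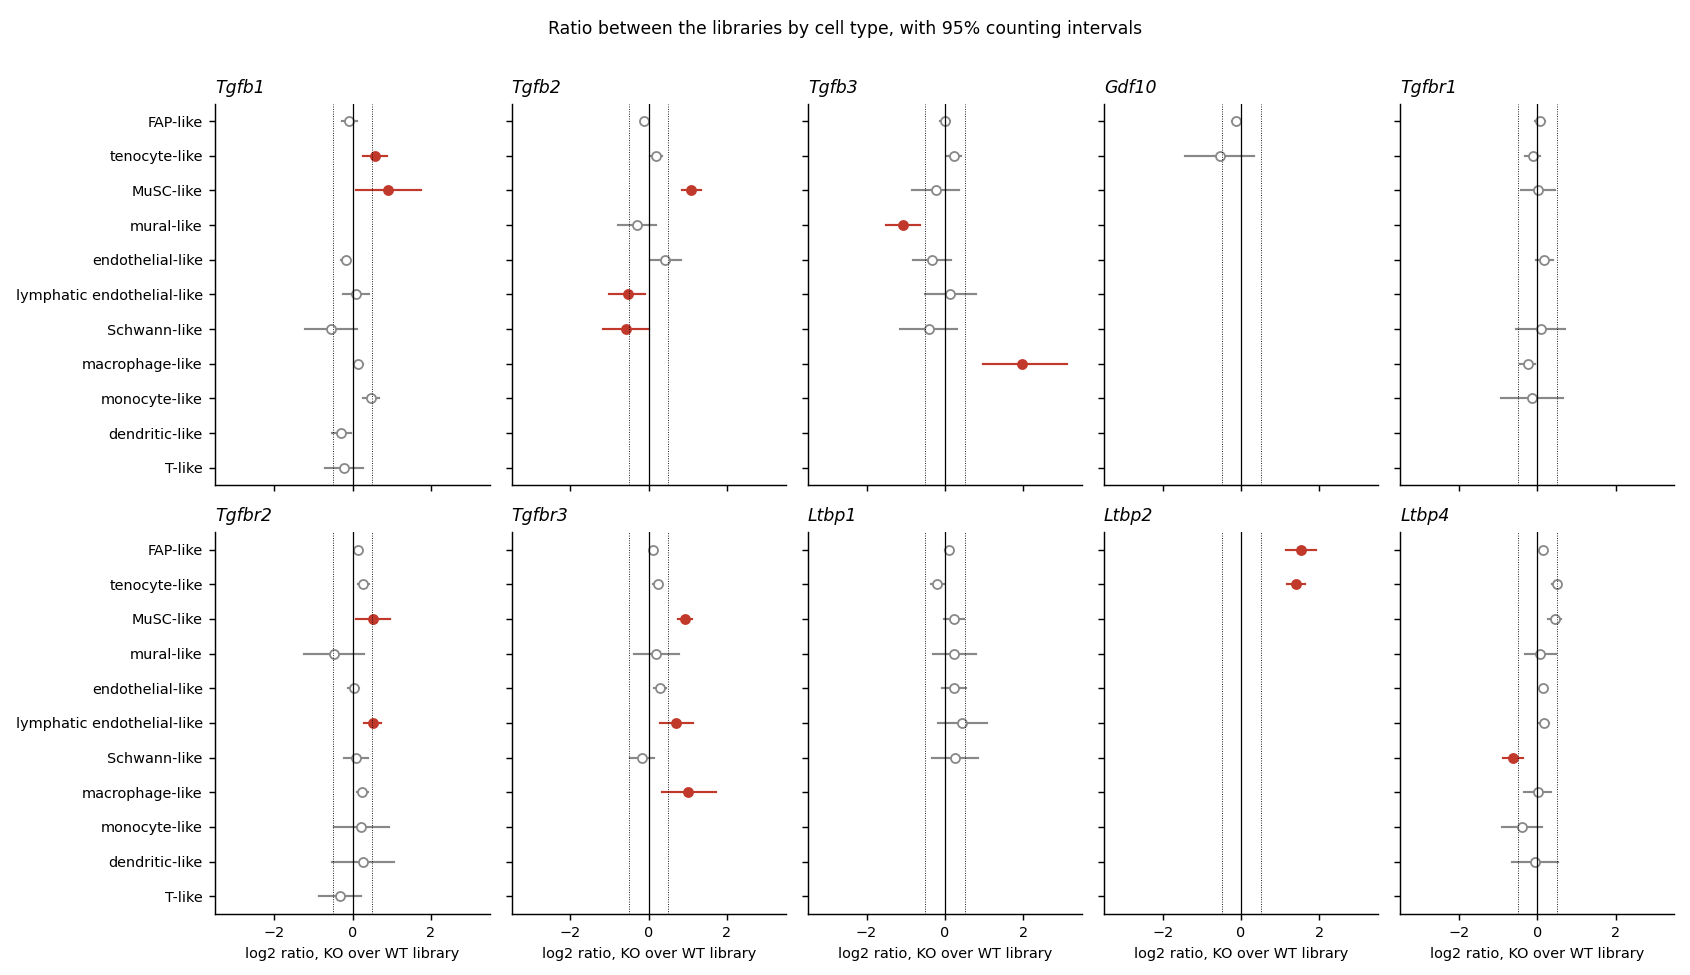
Log2 ratio of the library labelled KO over the library labelled WT for each gene and cell type with at least 50 UMIs, with 95% counting intervals. Filled red points are the 15 pairs past the fold, and dotted lines stand at -0.5 and 0.5. Most ratios lie between the dotted lines, Ltbp2 lies right of them in FAP-like and tenocyte-like cells, and Tgfb3 lies left of them in mural-like and right of them in macrophage-like cells.

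Other genes of the pathway were read from fixed lists in the same fit of types. In FAP-like cells, where 12.0% of all tested genes were past the fold, 1 of 11 tested genes of latency and activation was, Thbs1, whose product frees latent TGF-β, with 706 and 1105 CPM (ratio 0.65). Of 14 transducers and feedback genes 2 were lower in KO, Smad4, the common partner of the SMADs (77.1 and 54.1 CPM, -0.51), and Pmepa1, a TGF-β-induced inhibitor of the pathway (709.7 and 494 CPM, -0.52). Of 11 genes known as targets 3 were higher, Fn1 (2366 and 3389 CPM), Postn (897 and 1387 CPM) and Timp1 (176 and 272 CPM). The median ratio was -0.21 for transducers and 0.26 for targets, against -0.06 over all genes of FAP-like cells. Of the early response genes 3 of 10 were higher, and their sum was 11854 and 15675 CPM.

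Tenocyte-like cells, with a background of 12.3%, had 0 of 8 latency and activation genes past the fold, 2 of 14 transducers lower (Smad2, 37.4 and 24.1 CPM, and the repressor Tgif1, 68.6 and 48.2 CPM) and 3 of 11 targets higher (Col3a1, 3008 and 5043 CPM, Fn1, 1800.0 and 2904 CPM, and Postn, 1305 and 2174 CPM). The median ratio of these targets was 0.24, but their summed level was lower in KO, at 122309 and 100472 CPM (-0.28). Fn1 and Postn were thus past the fold in the same direction in FAP-like and tenocyte-like cells, which are neighboring clusters of the same libraries.

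Endothelial-like cells, with a background of 9.31%, had 0 of 9 latency and activation genes past the fold. Of 13 transducers 1 was lower in KO, the inhibitory SMAD gene Smad7 (332 and 191 CPM, -0.80, -0.90 to -0.70). Of 11 targets 3 were lower, among them Ccn2 (62.3 and 35.4 CPM) and Acta2 (9.68 and 5.51 CPM), and 0 were higher.

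In macrophage-like cells, with a background of 12.6%, 2 of 9 latency and activation genes were higher in KO, Nrros, whose product tethers latent TGF-β to the surface of myeloid cells (154 and 238 CPM, 0.63, 0.50 to 0.77), and Thbs1 (98.5 and 168 CPM, 0.77). Of 14 transducers Eng was lower (46.7 and 31.7 CPM). Of 11 targets 4 were higher, Timp1 (5.73 and 18.4 CPM), Lox (3.08 and 6.49 CPM), Col1a2 (155 and 224 CPM) and Fn1 (79.8 and 113 CPM), and 2 were lower, among them Ccn2 (10.4 and 5.95 CPM). The FAP markers in these cells summed to 215 and 316 CPM beside the matrix genes among them, and their part was not tested.

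In the smaller types the lists are given by counts, beside the share of all tested genes past the fold in the type. MuSC-like cells (24.3%) had 1 of 6 latency genes higher, 4 of 12 transducers higher and 1 lower, and 4 of 9 targets higher and 1 lower. Mural-like cells (15.5%) had 1 higher and 1 lower of 6 latency genes, 2 of 7 transducers higher, and 2 of 8 targets higher and 1 lower. Schwann-like cells (12.0%) had 1 higher and 1 lower of 8 latency genes, 3 of 13 transducers lower, and 1 of 10 targets higher and 3 lower. Lymphatic endothelial-like cells (13.1%) had 2 of 7 latency genes lower, 0 of 11 transducers past the fold, and 1 higher and 1 lower of 7 targets. In monocyte-like cells (16.4%) 0 of 6 latency genes were past the fold, with 2 higher and 2 lower of 9 transducers and 3 of 7 targets higher. Dendritic-like cells (15.2%) had 1 higher and 2 lower of 5, 2 lower of 9, and 1 higher and 2 lower of 6 genes of the lists in the same order, and T-like cells (18.1%) 0 of 3, 0 of 7 and 2 lower of 4.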

How the data were processed

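Cells of mouse gastrocnemius were captured with a 10x Genomics kit. The reads were counted with Cell Ranger against mm10, in version 2.1.1 per the submitters' processing notes, whereas the study's methods name a later version. Per the labels and the study's methods the data were processed in Seurat and cleared of doublets with DoubletFinder and of cells rich in mitochondrial RNA. The authors deposited 1 table of 19169 genes by 13432 cells on a natural log scale, ln of 1 plus the UMIs per 10000 UMIs of the cell, and the end of each barcode names the library. Undoing the log gave whole UMIs within 0.286 for all 29528482 values above 0, and the step returned 500 of 500 simulated cells. Counting error is set by the UMIs of a gene, from 298 for Ltbp2 to 34039 for Ltbp4 per library over all cells. Variation between mice and libraries was not measured.

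Cells were clustered on 2000 variable genes without the 10 genes and pathway lists (30 principal components, Harmony rewritten in numpy, 20 neighbors, Louvain, resolution 0.8) and named from fixed markers. FAP subsets used 20 principal components at the lowest resolution that gave 7 groups (0.35, of which 6 subsets could be named) and at 0.8. UMIs were summed per type and library. Scrublet marked 101 and 109 cells, and dropping them was 1 of the alternatives. The fold rule was tested on simulated data at the depths of FAP-like cells (11538 genes, 200 of them changed), where 98.5% of changed and 0.908% of unchanged genes were past the fold. The simulated counts held only the Poisson error that the intervals assume, without differences between cells, mice or libraries. These shares therefore check the calculation and do not estimate false calls in the real data. The work was done in Python 3.11.15 with scipy 1.17.1, numpy 2.4.6, pandas 2.3.3, scikit-learn 1.9.0, igraph 0.11.9 and scanpy 1.11.5.

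The genes, lists and alternatives were chosen with earlier results of these data known. Named were all 10 genes, list genes past the fold in types of at least 500 cells (up to 5 per direction) and the 3 genes most like each member. One gene of the target list is counted but not reported here by name. The subsets of macrophages and endothelium, and the alternatives that leave out the richest cells, use cells without a marker or cluster thinned cells anew, were chosen after seeing the data.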

Additional observations from a re-analysis of the deposited data

Results flagged for a closer look

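In 3 cases a gene was past the fold in opposite directions in a pair of cell types, and the difference between the types was not tested, since each genotype is 1 library. The log2 ratio (KO over WT) of Tgfb2 was 1.09 in MuSC-like and -0.58 in Schwann-like cells, a gap of 1.67. Against lymphatic endothelial-like cells, where the Tgfb2 ratio was -0.54, the gap was 1.63. Both lower ratios of Tgfb2 were weak in the checks given above. The decrease was not detectable among Schwann-like cells with no FAP marker UMI. In lymphatic endothelial-like cells the direction turned when every cell weighed the same. Tgfb3 had a ratio of 1.97 in macrophage-like cells, from 10 and 48 UMIs, and -1.07 in mural-like cells, from 129 and 73 UMIs, a gap of 3.04.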

How the results depend on the processing

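No paired analysis was possible because each genotype is 1 library and no test was run. The 15 pairs past the fold became 6 with a log2 ratio of at least 1, 6 with cells thinned to 1000 UMIs and 6 with thinned cells clustered anew, and lay between 11 and 18 under the other alternatives that change all types. The 9760 pairs over all genes became 2318, 2933 and 3113 in the same order, and 6254 with 10 CPM added to each level. The highest cell type of a gene stayed the same in each library for 6 of 10 genes after thinning and clustering anew (not for Tgfb1, Tgfb2, Tgfb3 and Ltbp1), for 7 after thinning alone, and for 9 or 10 under the other alternatives, Tgfb1 or Tgfb3 being the exception. The highest FAP subset stayed the same for 2 of 10 genes at resolution 0.8 and for 3 of 10 with subsets set by marker scores. Direction turned for Ltbp4 in Schwann-like cells (0.10, thinned and clustered anew), for Tgfb2 in lymphatic endothelial-like cells (0.11, cells weighed equally) and for Tgfbr3 in macrophage-like cells (-0.29 thinned, -0.46 thinned and clustered anew). Within coarse subsets it turned for Tgfb2 (0.83 in FAPs-3) and Gdf10 (0.38 in FAPs-1, 0.27 in FAPs-3) against all FAP-like cells. It also turned for Tgfb1 (0.51) and Tgfbr1 (-0.19) in coarse FAPs-2, though neither had a direction beyond counting error in all FAP-like cells. At resolution 0.8 the FAPs-3 ratios were -0.10 for Tgfb2 and -0.21 for Gdf10. The Tgfb2 ratio was 0.16 in coarse FAPs-2, which shares its leading genes with tenocyte-like cells. The causes were not tested. Leaving out a replicate was not possible. Thinning leaves few UMIs of genes at low levels, so their ratios carry wide intervals.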
